A study of Populus ussuriensis with 9 samples.

Results

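The genes described here are those whose leaf transcript level in a poplar line with high overexpression of LbDREB6, the line OE18, was at least 4 above wild type (WT) on the log2 scale, while the level in a line with moderate overexpression, OE14, lay within 1 of WT. The values compared were log2(mean FPKM + 1). FPKM is the number of fragments per unit of gene length and of library depth, and the mean was taken over the 3 libraries of a group. A gene also had to reach an FPKM of 1 in at least 3 of the 9 libraries and to have a read in at least 1 WT library. This rule found 103 genes among 22848 that reached the FPKM minimum and 29764 in the table. On a linear scale a difference of 4 is 16-fold for an abundant gene and more than that for a gene near 0, because 1 was added to each value.

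The libraries came from fully expanded leaves of Populus ussuriensis, with 3 libraries for WT, 3 for OE14 and 3 for OE18. The plants were 6 months old, were grown in a greenhouse and were left unwatered, for 2 weeks according to the descriptions of the samples and for 1 week according to the protocol of the treatment. All 3 groups shared this treatment, so each comparison is between genotypes under drought, and watered plants were not analysed here. Each level of overexpression was represented by 1 line, so level and line cannot be told apart. No source used here names the promoter that drives LbDREB6, and LbDREB6 itself was not analysed here.

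DREB proteins are plant transcription factors of the AP2/ERF family. They bind the dehydration-responsive element, a short DNA motif in the promoters of many genes that respond to drought, salt or cold. Plants that overexpress a DREB gene often tolerate water loss better and often grow more slowly. The table gives locus IDs only and does not pair them with gene names or descriptions, so the functions of the 103 genes are not stated. For the same reason only 2 of their IDs are printed, and the other genes are placed by the chromosome in their ID. The labelled tissue could not be checked against leaf marker genes. In whole leaves a change in the cells that make up the leaf and a change in the RNA per cell cannot be told apart.

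Library depth was 10988010 to 16221919 reads. Pearson's r of log2(FPKM + 1) across the 22848 genes lay between 0.991 and 0.994 within a genotype. It lay between 0.950 and 0.952 for WT with OE14, and between 0.772 and 0.779 for WT with OE18. No library stood apart from its own group by this measure. The FPKM values summed to 553425 to 563135 in the OE18 libraries, 524619 to 530746 in the OE14 libraries and 521892 to 525406 in the WT libraries.

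Most of the 103 genes were weakly expressed in WT, and the set was among the more abundant transcripts in OE18. The median over the set was 0.548 FPKM for WT, 1.13 FPKM for OE14 and 42.3 FPKM for OE18, beside 7.64, 8.06 and 8.39 FPKM for all 22848 genes. Ranked among these genes, the median gene of the set stood at percentile 5.81 for WT, 9.66 for OE14 and 89.9 for OE18. The highest percentile of a gene of the set in WT was 87.6. Only 52 of the 103 genes met the FPKM minimum in the WT and OE14 libraries alone, so the filter affects these percentiles. In OE18 the set ran from 16.7 to 675 FPKM, with 19 genes at 100 FPKM or more, 29 from 50 up to 100, 50 from 20 up to 50 and 5 below 20. In WT 62 of the genes were below 1 FPKM in every library and 30 were at 1 FPKM or more in every library. The genes were chosen by their mean FPKM in all 3 groups, so these levels and the differences from WT in both lines are a description without a test.

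**Figure D1:**
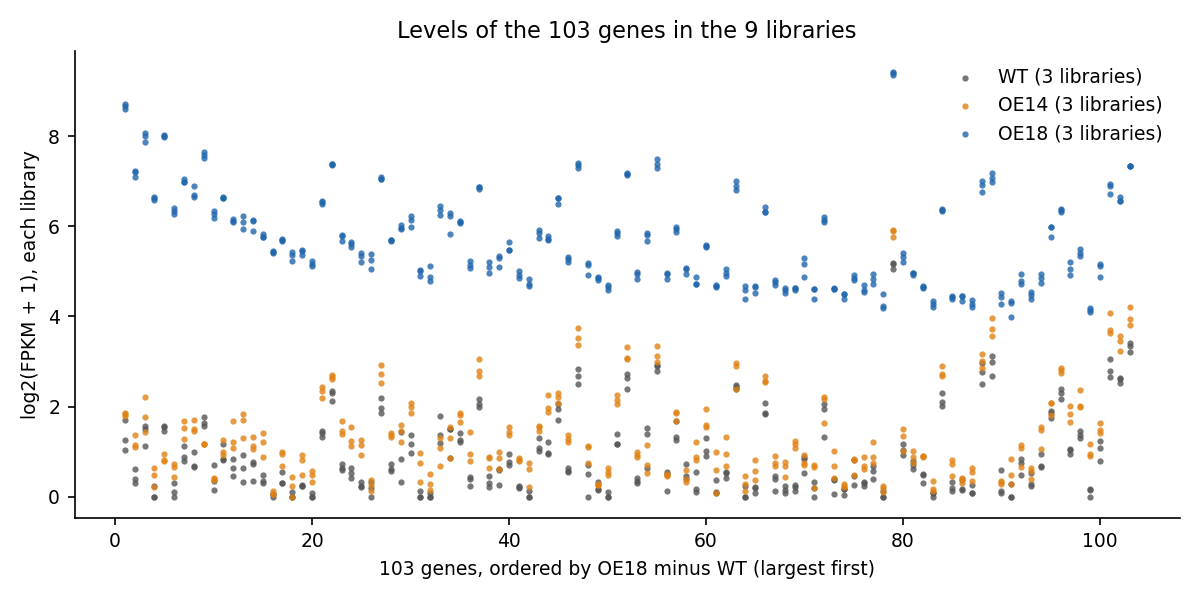
Level of each of the 103 genes as log2(FPKM + 1) on the vertical axis, with 1 point for each of the 9 libraries and the genes ordered along the horizontal axis by OE18 minus WT. In all 103 genes every OE18 library lies above every WT and OE14 library, while the WT and OE14 points lie close together near the bottom.

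The difference between OE18 and WT had a median of 4.57 over the 103 genes and ranged from 4.01 to 7.31 on the log2(FPKM + 1) scale, beside a median of 0.03 over the 22848 genes. It was 6 or more in 7 genes, from 5 up to 6 in 22 and from 4 up to 5 in 74. In limma, all 103 genes were called higher in OE18 than in WT at an adjusted p under 0.05, as were 41.6% of all genes tested. The rule used this comparison, and nothing is read from that count. Every OE18 library lay above every WT library in 103 of the 103 genes, which was so in 42.1% of all genes tested. Every OE18 library also lay above every OE14 library in all 103 genes, against 39.5% of all genes tested. The rule demands a large rise of the OE18 mean, so both counts were nearly fixed by it and nothing is read from them.

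The 103 genes together took a far larger share of the transcripts in OE18. This follows from the rule, which chose them for a large rise there, so the sums are a description. Summed over the set, the FPKM values came to 163, 161 and 166 in the WT libraries. The sums were 285, 297 and 276 in the OE14 libraries and 7512, 7376 and 7157 in the OE18 libraries. The groups do not overlap, and the libraries of a group lie close together. As a share of the library's total FPKM this was 0.0307% to 0.0317% for WT, 0.0526% to 0.0566% for OE14 and 1.28% to 1.33% for OE18. The 10 most abundant genes held 35.1% of the OE18 sum.

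The largest difference was that of Potri.002G028800.v3.0, on chromosome 2. It had 1.40, 1.04 and 2.24 FPKM in the WT libraries, 2.63, 2.55 and 2.43 in the OE14 libraries, and 422, 405 and 388 in the OE18 libraries. The OE18 libraries were far above the other 6, and the OE14 libraries lay just above the highest WT library. The group means were 1.56 ± 0.619, 2.54 ± 0.0977 and 405 ± 16.8 FPKM (SD, n = 3 each), so that the OE18 mean was 260 times the WT mean. The difference from WT was 7.31 in OE18 and 0.47 in OE14 on the log2(FPKM + 1) scale. Potri.002G028800.v3.0 moved from rank 19136 of all genes by level in WT to rank 113 in OE18. In WT it was counted with 42 reads in all.

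The most abundant gene of the set in all 3 genotypes was Potri.016G014500.v3.0, on chromosome 16. It had 34.8, 32.0 and 35.6 FPKM in the WT libraries, 53.6, 59.5 and 58.2 in the OE14 libraries, and 658, 687 and 681 in the OE18 libraries. The 3 genotypes formed 3 separate levels without overlap. The means were 34.1 ± 1.89, 57.1 ± 3.11 and 675 ± 15.4 FPKM (SD, n = 3 each), and the OE18 mean was 19.8 times the WT mean and 11.8 times the OE14 mean. The difference from WT was 4.27 in OE18 and 0.73 in OE14 on the log2(FPKM + 1) scale. Potri.016G014500.v3.0 ranked 2836 of all genes by level in WT and 65 in OE18, and with 2472 WT reads its ratio is the most precise of the set, with a 95% exact interval for counting error of 19.0 to 20.6.

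Among the 10 genes with the largest differences, 3 lay on chromosome 13, 2 each on chromosomes 2 and 5, and 1 each on chromosomes 1, 4 and 14. The second largest difference was on chromosome 13, in a gene with 0.531, 0.306 and 0.235 FPKM in the WT libraries, 1.21, 1.59 and 1.14 in those of OE14 and 148, 136 and 148 in those of OE18. In that gene the OE14 libraries also lay above all WT libraries, at 3.67 times the WT mean. The third largest was on chromosome 5, with 1.98, 1.19 and 1.83 FPKM in the WT libraries, 3.64, 2.41 and 1.71 in those of OE14 and 268, 254 and 235 in those of OE18. There the WT and OE14 libraries overlapped. The fourth, on chromosome 14, had 0.171, 0 and 0 FPKM in the WT libraries, 0.391, 0.564 and 0.154 in those of OE14 and 97.7, 99.9 and 94.7 in those of OE18. It had 2 WT reads in all, so its OE18 to WT ratio of 1549 by reads has a counting interval from 428 to 12796. The set of 10 genes with the largest differences and the set of 10 with the highest OE18 levels shared 5 genes.

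The OE18 to WT ratio tended to be larger in genes with fewer reads in WT. The rule builds this in, because with 1 added to each value it demands a larger ratio where the WT level is low. Of the 103 genes, 13 had 1 to 3 reads over the 3 WT libraries, 8 had 4 to 9, 60 had 10 to 99 and 22 had 100 or more. The OE18 to WT ratio of mean FPKM had a median of 92.5 over all 103 genes, 65.4 over the 82 genes with 10 or more WT reads and 26.8 over the 22 genes with 100 or more. The largest ratio of means, 2138, was that of a gene on chromosome 17 with a single WT read, whose ratio by reads was 1934 with a counting interval from 347 to 76417. At least 1 WT library was at 0 in 17 genes, and at least 1 OE14 library in 1 gene. Across the 103 genes the WT and OE18 levels had a Spearman's rho of 0.77 and the log2 levels a Pearson's r of 0.74. This describes the set only, since the rule fixes a minimum ratio, and the rho across the 22719 genes tested that were above 0 in all groups was 0.78.

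In OE14 most of these genes were not at the WT level, but above it, by a small amount on the log2(FPKM + 1) scale. This is a description without a test, because the rule used the OE14 difference, and because low values in the WT libraries, which both lines share, raise the ratios of both. The OE14 mean was above the WT mean in 96 of the 103 genes and below it in 7. After quantile normalization, a scaling that forces 1 common distribution on all libraries, these counts were 88 and 15. On the log2(FPKM + 1) scale the difference between OE14 and WT had a median of 0.47 and ranged from -0.67 to 1.00, beside a median of 0.07 over all genes tested. Without the added 1, the OE14 mean was 2 or more times the WT mean in 56 genes, 4 or more times in 22 and 10 or more times in 6. The median ratio was 2.13. After quantile normalization 33 genes had a ratio of 2 or more. Among all 22848 genes, 57.5% had a ratio above 1 and 9.16% a ratio of 2 or more. Genes at such low WT levels can show large ratios within the rule, because the added 1 outweighs their FPKM, and the ratios of the genes with few WT reads are imprecise. Of the 82 genes with 10 or more WT reads, 37 had an OE14 to WT ratio of 2 or more, with a median of 1.93. Of the 22 genes with 100 or more WT reads, 4 did, with a median of 1.69.

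Every OE14 library lay above every WT library in 70 of the 103 genes, which was so in 36.1% of all genes tested. Every OE14 library lay below every WT library in 2 of them, against 24.3% of all genes tested. In limma 72 of the genes were called higher in OE14 than in WT and 3 lower at an adjusted p under 0.05. Of all genes tested, 31.9% were called higher and 20.9% lower. After quantile normalization 56 of the 103 genes were called higher and 4 lower, beside 5883 and 5787 of the 22848 genes tested. The rule used the comparison of OE14 with WT too, and it shares the WT libraries with the comparison of OE18. These counts are therefore a description. In FPKM the OE14 difference from WT was small beside that of OE18. It was between -1.12% and 6.34% of the OE18 difference, with a median of 1.48%, and reached 5% in 3 genes. The OE18 mean was 8.78 to 772 times the OE14 mean, with a median of 36.0. The thresholds of the rule limit this share to small values and this ratio to large ones, so both are a description. All 103 genes were called higher in OE18 than in OE14 by limma, as were 38.8% of all genes tested, and this too follows from the rule.

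**Figure D2:**
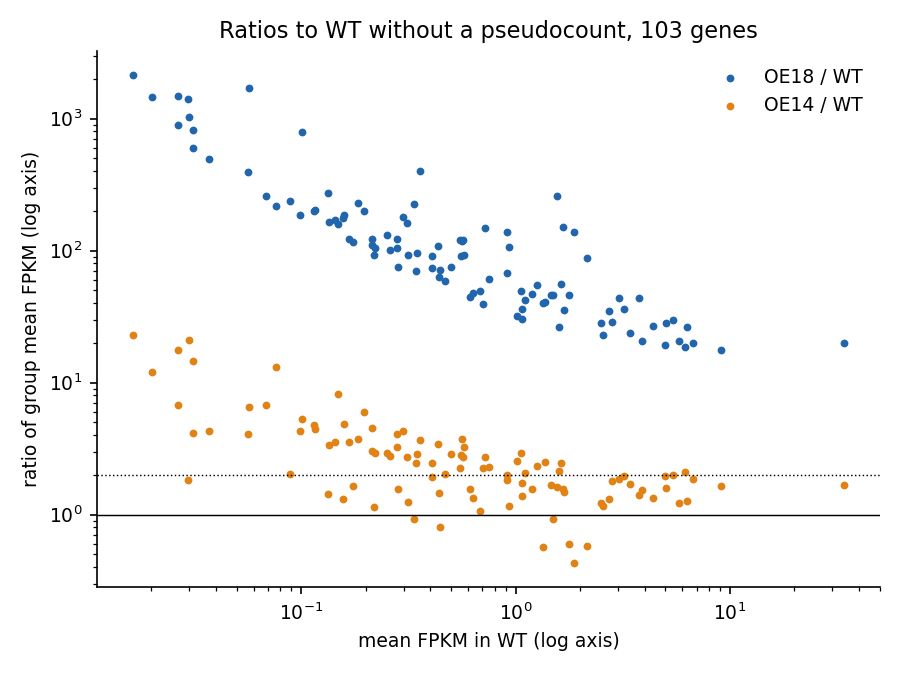
Ratio of the OE18 mean (blue) and of the OE14 mean (orange) to the WT mean for each of the 103 genes, without a pseudocount, against the WT mean FPKM, with both axes on a log scale. The solid line marks a ratio of 1 and the dotted line a ratio of 2, and 56 OE14 ratios are at or above 2 and 7 are below 1.

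The 7 genes with an OE14 mean below the WT mean lay on 3 chromosomes, with 4 on chromosome 5, 2 on chromosome 13 and 1 on chromosome 4. The largest of these differences was on chromosome 13, in a gene with 1.76, 1.94 and 1.90 FPKM in the WT libraries, 0.753, 0.725 and 0.924 in those of OE14 and 262, 253 and 257 in those of OE18. Its OE14 mean was 0.429 times the WT mean and its OE18 mean 138 times. A gene on chromosome 5 had 2.40, 1.96 and 2.13 FPKM in the WT libraries, 1.26, 1.24 and 1.26 in those of OE14 and 201, 190 and 183 in those of OE18. In both genes all OE14 libraries lay below all WT libraries and all OE18 libraries far above them. In the other 5 the WT and OE14 libraries overlapped, and their OE14 to WT ratios ran from 0.563 to 0.932. After quantile normalization 15 of the 103 genes had an OE14 mean below the WT mean, so this number depends on the scaling. Of the whole set, chromosome 5 held 12 genes, chromosome 13 held 7 and chromosome 4 held 8, and the shares were not tested.

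**Figure D3:**
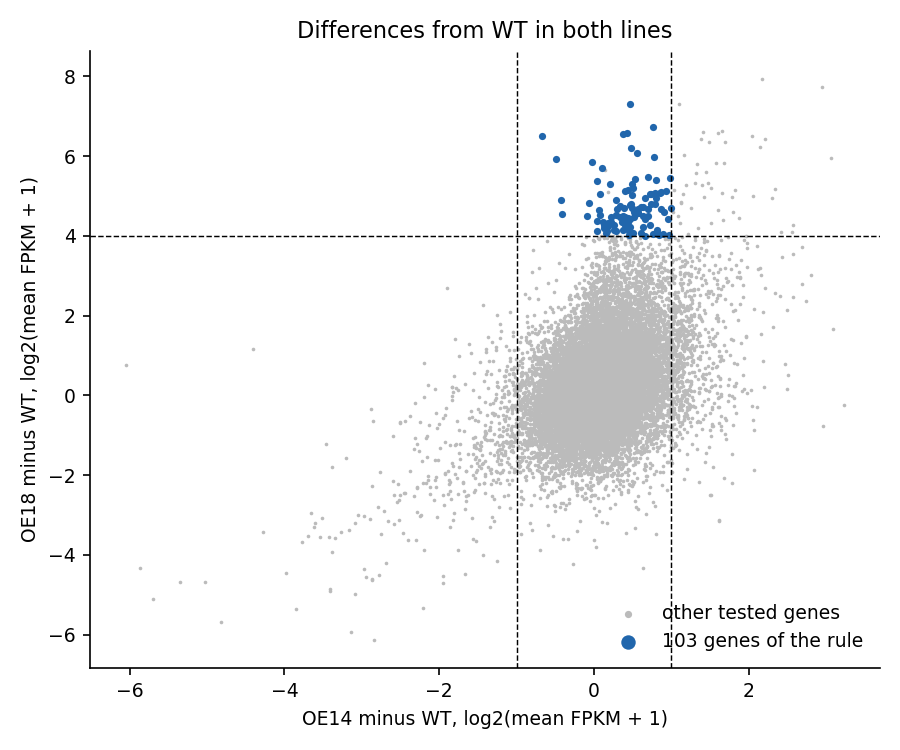
Difference of each tested gene from WT in OE14 (horizontal axis) and in OE18 (vertical axis), both as log2(mean FPKM + 1), with the 103 genes in blue and the thresholds of the rule as dashed lines. The blue points fill the upper middle field, and 96 of the 103 lie to the right of 0.

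The thresholds cut through a continuous range of values. The 3 genes just inside the OE18 threshold had differences of 4.006, 4.010 and 4.012, with OE18 means of 160, 95.5 and 115 FPKM. The 3 just outside it, among genes that met the other terms of the rule, had 3.998, 3.993 and 3.992, with OE18 means of 22.7, 15.3 and 18.1 FPKM. On the OE14 side the 3 genes just inside had differences of 1.00, 0.98 and 0.97, and the 3 just outside had 1.02, 1.04 and 1.08. In all, 152 genes with a read in WT were higher in OE18 by 4 or more, and the 49 of them outside the set were all higher in OE14, by 1.02 to 3.07 with a median of 1.52. These 49 genes had median levels of 1.57 FPKM in WT, 7.56 in OE14 and 139 in OE18. A further 3 genes had an OE18 difference of 4 or more but no WT read, and the rule left them out.

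The spread within a group was not used by the rule. In OE18 the coefficient of variation over the 3 libraries had a median of 4.93% in the 103 genes, against 4.84% in the 6276 other tested genes whose OE18 level fell in the same range. The theoretical coefficient from counting alone, set by the mean number of reads per library, had a median of 3.41% in the 103 genes. It is not an estimate from 3 libraries, so it is not directly comparable with the observed coefficient. The coefficient was 10% or more in 10 genes. The highest, 16.5%, was that of a gene on chromosome 5 with 74.1, 77.1 and 56.1 FPKM in the OE18 libraries. All 3 of its values were still far above its WT libraries, at 1.84, 0.815 and 1.84 FPKM.

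The OE18 libraries differed a little among themselves in the same order in the 103 genes and in other genes. The median deviation from the gene mean was 0.03, 0.01 and -0.03 on the log2(FPKM + 1) scale in libraries 1, 2 and 3 for the 103 genes, and 0.02, 0.0050 and -0.02 for the other genes in the same range. Library 1 was the highest of the 3 in 49 of the 103 genes and library 3 the lowest in 54. In the other genes these shares were 46.6% and 45.4%. In WT, where the values rest on few reads, the median coefficient of variation was 30.5%. The theoretical coefficient from counting alone had a median of 33.3% there. In OE14 these medians were 20.5% and 20.4%. As in OE18, the observed and theoretical coefficients are not directly comparable.

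**Figure D4:**
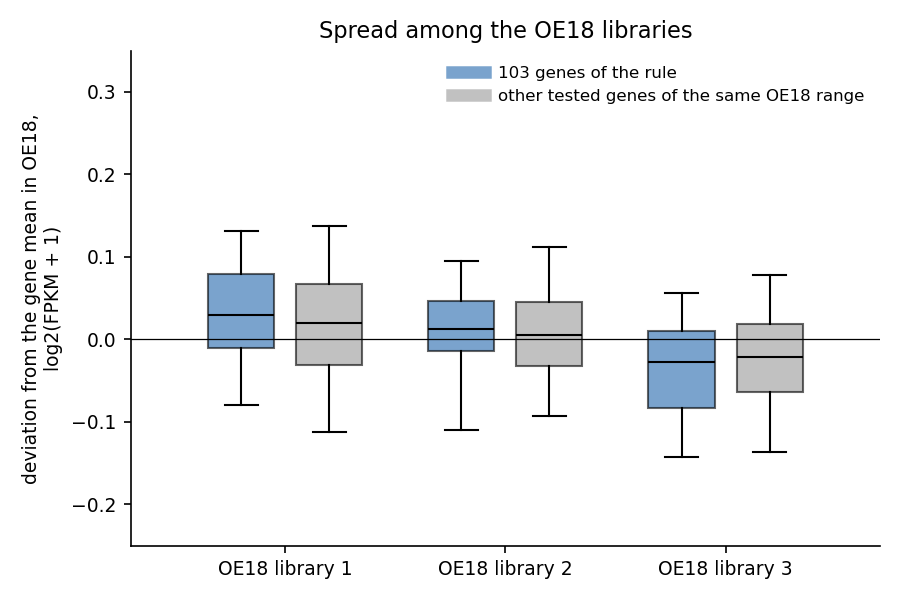
Deviation of each OE18 library from the gene's mean over the 3 OE18 libraries, on the log2(FPKM + 1) scale, for the 103 genes (blue) and for 6276 other tested genes of the same OE18 range (grey). Boxes span the quartiles with the median as a line and whiskers reach the percentiles 5 and 95, and the medians of the 103 genes are 0.03, 0.01 and -0.03 in libraries 1, 2 and 3.

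The 103 genes were spread over all 19 chromosomes, with 2 genes at loci not placed on one. Chromosome 1 held 15 of them, chromosome 5 held 12 and chromosome 4 held 8. Chromosomes 2, 7 and 13 held 7 each. Chromosome 19 had the highest density, with 6 genes or 1.05 per 100 genes tested, and chromosome 12 the lowest, with 1 gene or 0.129 per 100. Chromosome 5 had 11.7% of the set and 6.52% of all genes tested. These shares were not tested, since the genes were chosen with the results known. Among the first 600 loci of chromosome 5, 3 of 282 genes tested belonged to the set. Among the first 200 loci of chromosome 18 it was 0 of 106. Of all genes tested 0.451% belonged to the set, so counts this small say nothing about these stretches.

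**Figure D5:**
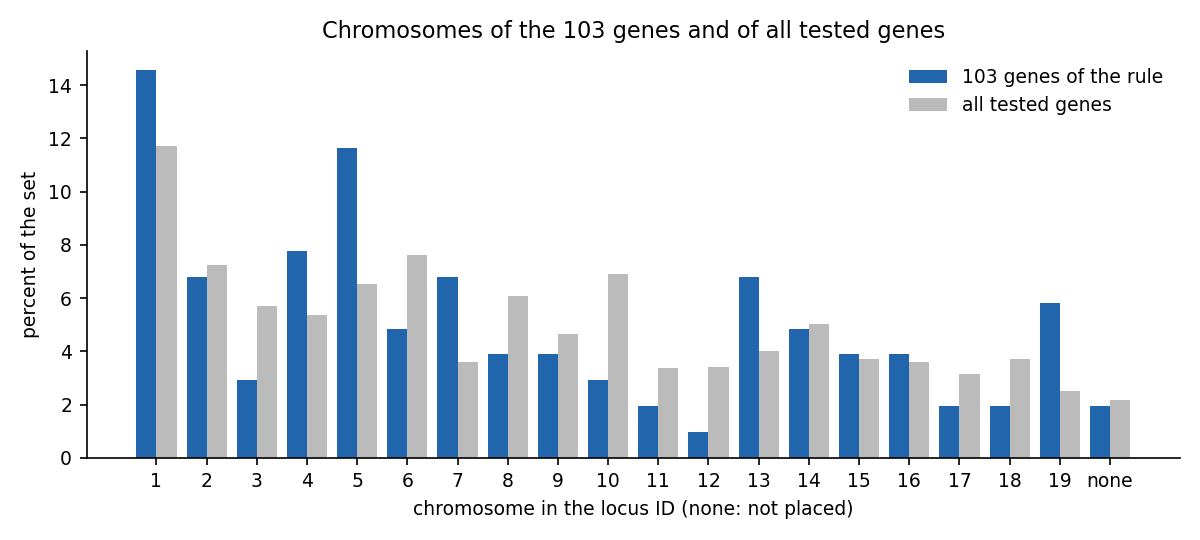
Percent of the 103 genes (blue) and of all 22848 tested genes (grey) on each chromosome, as read from the locus ID. Chromosome 5 has 11.7% of the 103 genes and 6.52% of the tested genes, and chromosome 12 has the fewest of the 103 genes, with 1.

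Few of the genes were close neighbours in the order of locus IDs. Only 4 of the 103, or 3.88%, had another gene of the set within 5 loci, and 2.57% of the other genes tested lay that close to a gene of the set. Within 20 loci the shares were 6.80% and 9.60%. The 4 genes formed 2 pairs. The pair on chromosome 1 was 2 loci apart. Its first gene had 4.24, 4.58 and 4.36 FPKM in the WT libraries, 4.22, 6.77 and 6.49 in those of OE14 and 128, 117 and 111 in those of OE18. Its second had 0.853, 1.16 and 0.734 FPKM in the WT libraries, 1.42, 2.18 and 1.89 in those of OE14 and 132, 126 and 125 in those of OE18. The locus between them stayed low in all 9 libraries, with means of 1.23 FPKM in WT, 1.92 in OE14 and 2.22 in OE18. The first locus after the pair had means of 0.762, 1.58 and 0.695 FPKM. The second locus after it was also high in OE18, with means of 1.68 FPKM in WT, 2.14 in OE14 and 13.8 in OE18, a difference between OE18 and WT of 2.46 on the log2(FPKM + 1) scale.

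The pair on chromosome 5 was 3 loci apart, and both of its genes had OE14 means below the WT mean. The first had 1.84, 0.815 and 1.84 FPKM in the WT libraries, 1.45, 0.816 and 1.91 in those of OE14 and 74.1, 77.1 and 56.1 in those of OE18. The second had 1.85, 0.563 and 1.61 FPKM in the WT libraries, 0.446, 1.21 and 0.616 in those of OE14 and 55.0, 56.4 and 50.3 in those of OE18. In both genes the second WT library was the lowest of the WT libraries. The tested locus between them had means of 7.22 FPKM in WT, 7.91 in OE14 and 8.70 in OE18, and no other locus between them was analysed here. Whether the neighbouring genes resemble each other in sequence, and whether the counting could divide reads between them, is not known here.

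The genes of the set were shorter than the genes tested as a whole. Their median length, recovered from the FPKM values, was 1442 bases, with quartiles of 997.5 and 1904 and a range from 447 to 3290. All genes tested had a median of 1850 bases, with quartiles of 1306 and 2548. Of the 103 genes 72 were shorter than the median of all genes tested. Among the most abundant, Potri.002G028800.v3.0 had 748 bases and Potri.016G014500.v3.0 had 1993. Length was not used by the rule, but its part in the choice of the genes was not tested.

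Membership depended on how low values were treated. With 0.1 added in place of 1 the same rule gave 279 genes and kept 51 of the 103, and with 0.5 added it gave 180 and kept 86. Without any FPKM minimum, and with a minimum of 5 FPKM, all 103 genes stayed and no other gene joined. The OE18 threshold of the rule itself demands an OE18 mean well above 5 FPKM. In the set the lowest OE18 mean was 16.7 FPKM and the highest OE18 coefficient of variation 16.5%. Changing the minimum could therefore hardly change the set, and nothing is read from this outcome. Potri.002G028800.v3.0 and Potri.016G014500.v3.0 belonged to the set under each of these added values and minimums. Of the 103 genes, 52 met the FPKM minimum in the WT and OE14 libraries alone, and the other 51 met it only with the help of the OE18 libraries, in which they were high.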

How the data were processed

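Leaves were frozen and their RNA was extracted with CTAB for Illumina sequencing, per the labels' protocols. The authors deposited FPKM values, with 1 column per library. The submitters' processing notes name HISAT2 2.1.0 and Bowtie2 2.2.3. How reads were counted, on which genome build and annotation, and whether strand was used, is not given in the sources used here. The columns of OE14 and OE18 carry the sample titles, and the 3 columns headed C were taken as WT by elimination.

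Whole reads, library totals and gene lengths were recovered from the deposited FPKM values, within 0.001 reads for all 29764 genes. Intervals of read ratios are 95% exact (Clopper-Pearson) and cover counting error only. Genes that reached an FPKM of 1 in at least 3 libraries were fitted as log2(FPKM + 1) with limma (version 3.58.1, R version 4.3.3) and a variance trend, in 1 fit over all libraries, with two-sided tests, Benjamini-Hochberg adjustment and calls at an adjusted p under 0.05. The fit was tested on simulated data. Nothing beyond the series' word that replicates are biological says that they came from separate plants, so its calls measure the spread between these libraries.

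The rule used both comparisons with WT, and OE18 against OE14 follows from them, so the limma calls of the 103 genes are a description. The genes and lists were chosen with earlier results of these data known. Genes described singly had the largest differences, the highest OE18 levels, values next to a threshold or a neighbour in the set. Those with an OE14 mean below WT, the largest ratio or the largest spread were chosen after their values were seen. Gene lists by description could not be applied and no sequence is shown, because no annotation was used here. Alternatives covered the added value, the FPKM minimum, the scaling, the thresholds, the group summary and each library left out.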

Additional observations from a re-analysis of the deposited data

How the results depend on the processing

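The set had 103 genes. It had 279 with a pseudocount of 0.1, 180 with 0.5, and 158 after each library was rescaled to the same sum (TPM), which kept 86 of the 103. Rescaling multiplies the values, so the added 1 weighs less. It also divides the OE18 values by larger sums, and the OE18 difference of Potri.016G014500.v3.0 went from 4.27 to 4.19. A threshold of 3 for the rise gave 358 genes, one of 5 gave 29, and one of 0.5 for OE14 gave 58. Median-of-ratios scaling gave 101 genes, quantile normalization 90 and group medians 107. With 1 library left out the set had 61 to 106 genes. It fell to 62, 61 and 65 without OE18 replicates 1, 2 and 3, because genes high only in OE18 then miss the minimum of 3 libraries. With a minimum of 2 libraries, chosen after seeing the data, these became 105, 101 and 106.

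The median difference of the 103 genes in OE18, 4.57, was 6.19 with a pseudocount of 0.1, 5.18 with 0.5, 5.05 as TPM, 4.36 after quantile normalization and 4.62 with group medians. Leaving out 1 library gave 4.56 to 4.61. The median in OE14, 0.47, was 0.97, 0.69, 0.67 and 0.33 under the first 4 of these and 0.43 with median-of-ratios scaling. Leaving out 1 library gave 0.46 to 0.48. No median changed sign in these settings. The 103 genes were held fixed and had been chosen by these differences in the same libraries, so nothing is read from this. Under quantile normalization the median over all genes tested in OE18 against WT went from 0.03 to -0.15, so the OE18 differences are relative to that shift.

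Limma called 18158 genes in OE18 against WT, 12074 in OE14 against WT and 17745 in OE18 against OE14. Counts under the alternatives stayed within 1.5 times of these. The replicate numbers of OE14 and OE18 were not taken as pairs in the main fit. Correlations of deviations were 0.0997, 0.0606 and -0.02 for same-numbered libraries and ran from -0.118 to 0.0685 for the others. This measure cannot decide whether same-numbered libraries shared a batch. In a fit of the OE14 and OE18 libraries alone, limma called 17738 genes with the replicate number as a block and 17620 without it. In the comparisons with WT no paired analysis was possible. There the numbers in the WT column headers could not be matched to the labelled WT samples. Values of a few reads, as in 13 genes in WT, are limited by depth.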
